A study of Homo sapiens with 6 samples.

Results

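Genes for the factors that start and extend protein synthesis were compared between HT1080 cells given 1 of 2 KDAC6 (HDAC6) inhibitors. The set was chosen by name. It holds the rows named EEF1, EEF2 or EIF1 to EIF6, together with PABPC1, PABPC4 and TPT1, without the eIF2 kinases, the eIF4E-binding proteins and pseudogene names. A row also needed a count in each of the 6 libraries. Of 59 matching names 1, EIF4E1B, was left out because it had 0 counts in each library, so the set has 58 genes of the 60675 rows in the table. All 58 passed the filter on low counts and were tested.

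Cells make protein in steps that these genes serve. Initiation factors of the eIF2 and eIF3 groups bring the initiator tRNA and the small ribosomal subunit together, and the eIF4 group recognises the mRNA cap and unwinds the leader. Poly(A)-binding proteins hold the mRNA tail, eEF1 complexes deliver charged tRNAs, eEF2 moves the ribosome along, and eIF5A helps at difficult peptide bonds. Many of the most abundant of these mRNAs are terminal oligopyrimidine (TOP) mRNAs, which begin with a C followed by a run of C and T (U in the RNA) and whose translation responds to mTOR.

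HT1080 is an established human fibrosarcoma line, here of wild-type genotype and grown in serum. Over 48 h, cells received 1 µM of either SW-113 or SW-138, and the series asks how selective such inhibitors are. Sequencing used total RNA without its ribosomal RNA, with 3 libraries per compound and no vehicle group in the labels. "Higher" and "lower" therefore compare SW-138 with SW-113, and an effect of SW-138 cannot be told apart from an opposite effect of SW-113. Whether replicates were separate cultures is not stated, and p-values thus rest on the spread among these libraries, possibly a technical one. In bulk RNA, fewer cells of a type and less RNA per cell cannot be told apart either.

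Libraries held 32771670 to 50871623 counts. Of 8 mesenchymal markers 7 exceeded 10 CPM (counts per 1000000 reads of a library, with TMM scaling) and summed to 6582 to 7476 CPM with SW-113 and 7030 to 8084 CPM with SW-138, while THY1 was under 1 CPM. The 6 blood markers were each under 1 CPM, with HBB at 0. The 6 epithelial markers summed to at most 3.52 CPM, with KRT5 and KRT14 at 0. The 4 endothelial markers summed to 85.3 to 103.6 CPM with SW-113 and 87.8 to 122.0 CPM with SW-138, of which TIE1 alone was over 1 CPM. The 4 neuronal markers summed to 10.4 to 11.7 and 12.3 to 14.6 CPM, with SNAP25 and SYT1 over 1 CPM. The part of these genes in the values below was not tested. SW-138 replicate 2 was the library farthest out along the leading principal component (36.7% of variance), with a score of 23.2 against -15.4 to 7.6 for the rest. RN7SL1, the RNA of the signal recognition particle, had a share of counts of 4.11% ± 0.349 (SD, 3 libraries) in SW-113 and 2.56% ± 0.380 in SW-138 cells. The mitochondrial and stable noncoding genes, RN7SL1 among them, were also left out of the scaling and the test. The members' median log2 fold change was then -0.08, as with them. In that fit 5 members were lower, EEF1A1 beside the 4 named below, where 4.13% of all tested genes were.

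Because TOP mRNAs are defined by how they begin, the first bases of the members the results turn on are shown first. Each window runs from 10 bases before the RefSeq transcription start (GRCh38.p14) to the 20th transcribed base, 5′ to 3′ on the gene's strand. Capitals mark the C and T run that begins at the start site, where the first base is C and at least 5 bases are C or T.
TPT1: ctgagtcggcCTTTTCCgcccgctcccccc
EEF1B2: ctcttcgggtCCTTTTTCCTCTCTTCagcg
EEF1B2 (other start): aagtggccccagcctcgaggccgggcgtct
EEF1A1: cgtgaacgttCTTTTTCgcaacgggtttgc
EEF2: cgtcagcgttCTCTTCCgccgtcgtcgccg
EEF1G: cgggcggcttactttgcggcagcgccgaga
EIF3K: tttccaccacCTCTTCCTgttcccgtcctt
EIF4B: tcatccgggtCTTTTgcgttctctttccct
EIF2S3: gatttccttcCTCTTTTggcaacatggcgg
EIF2S1: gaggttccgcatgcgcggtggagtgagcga
EIF4A2: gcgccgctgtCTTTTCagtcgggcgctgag
EIF4A1: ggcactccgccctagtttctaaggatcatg

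The windows lie at chr13:45341164-45341193 (TPT1, minus strand), chr2:206159885-206159914 and chr2:206159599-206159628 (EEF1B2, plus), chr6:73521013-73521042 (EEF1A1, minus), chr19:3985444-3985473 (EEF2, minus) and chr11:62573872-62573901 (EEF1G, minus). Those of the initiation factors lie at chr19:38619178-38619207 (EIF3K, plus), chr12:53006446-53006475 (EIF4B, plus), chrX:24054946-24054975 (EIF2S3, plus), chr14:67360318-67360347 (EIF2S1, plus), chr3:186783567-186783596 (EIF4A2, plus) and chr17:7572815-7572844 (EIF4A1, plus). For 47 of the 58 members a RefSeq start was read, and 14 of these (29.8%) had such a run on at least 1 start. EEF1D, EIF3E, EIF3H and PABPC1, all on chromosome 8, were not among the 47. Also missing were PABPC4, which is among the members called lower below, and EEF1A2, EIF2S2, EIF3A, EIF3CL, EIF3G and EIF3L. The run was searched on the transcribed strand alone, since it is a feature of the RNA's beginning. Such a run was on 5.14% of all genes with a RefSeq entry, and on 4.07% of the 35116 starts. TPT1 and EEF1B2, which fell most among the members past the threshold, both have it, as do EEF1A1 and EEF2. EEF1G begins without it in this table, though it is a classical TOP gene, and so do EIF2S1 and EIF4A1.

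Across the set, 4 of 58 members were lower with SW-138 and 0 were higher at an adjusted p under 0.05 (edgeR quasi-likelihood test, Benjamini-Hochberg over 16905 genes). TPT1, EEF1B2, EEF1G and PABPC4 are the 4. Among all tested genes 4.06% were lower and 2.76% higher, so the members' share of lower calls, 6.90%, lay near the background. Among tested genes with a mean of at least 100 CPM 8.46% were lower, and among the 38 members at that level 4 were, with 5.72% of such tested genes higher. Among all tested genes 6.82% passed in either direction. limma-voom called 5 members lower, beside 3.93% of all genes it tested, edgeR with robust estimation 6, beside 4.62%, and DESeq2 6, beside 5.53%. These tools called 0 members higher, beside 2.74%, 3.16% and 4.67%. At an unadjusted p under 0.05, 17 members lay on the lower side and 0 on the higher side, beside 12.3% and 10% of all tested genes. At a mean of at least 100 CPM 15 of 38 members lay on the lower side, beside 17.5% of such genes.

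Most members nonetheless had a small negative value. The log2 fold change was below 0 for 45 members and above 0 for 13, with a median of -0.08, where 48.5% of all tested genes were below 0 and their median was 0.01. With total counts alone as the scale, 32 members were below 0 and 26 above, with a median of -0.01, while the median of all genes was 0.07. In 22 members every SW-138 library lay below every SW-113 library, beside 15.4% of tested genes, and in 3 (EIF2S1, EIF4A2 and EIF4ENIF1) every one lay above, beside 12.4%. Of the 38 members at a mean of at least 100 CPM 18 lay below in this way and 2 above, beside 21.9% and 16.9% of such genes. The members were read from the same libraries and are not independent of each other. Their median standard error was 0.05 on the log2 scale, against 0.09 over all genes. Tested genes at a mean of at least 100 CPM also had 0.05, and the members' median level was 225 CPM against 14.6 over all genes. For 40 of 58 members the 95% interval lay within 1.2-fold in either direction, and for 55 within 1.5-fold. The other 3, EIF3CL, EIF5AL1 and EIF2S3L, are near-identical copies of other members.

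**Figure D1:**
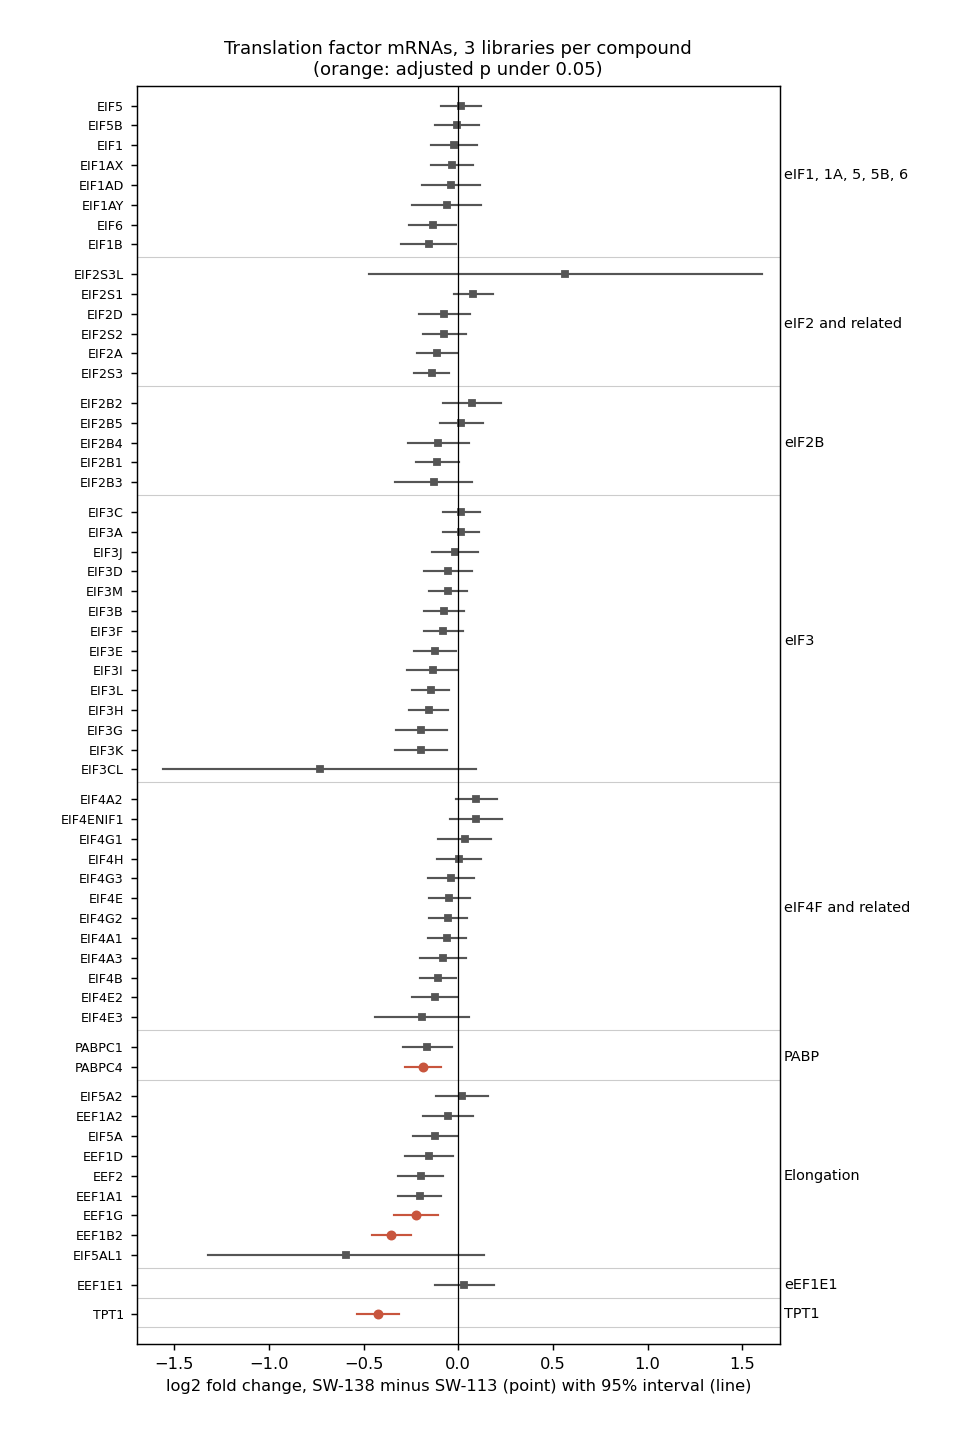
The log2 fold change of each of the 58 members, SW-138 minus SW-113, by role, with points for the edgeR estimate and bars for the 95% interval. The 4 members past the threshold are in orange, and most points lie a little below 0.

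Among the elongation factors, 2 of 9 fell, EEF1B2 and EEF1G, and 0 rose, with a class median of -0.20 (near-copy EIF5AL1 included). Over all tested genes 4.06% were lower and 2.76% higher, and 8.46% were lower at a mean of at least 100 CPM. EEF1A1 and EEF2, the most abundant of the class, were close to the threshold without passing it. The nucleotide exchange subunit of eEF1, which reloads eEF1A with GTP, is encoded by EEF1B2 (ENSG00000114942, chr2:206159585-206162928, GRCh38). EEF1B2 stood at 388, 397 and 380 CPM in SW-113 replicates 1, 2 and 3 and at 308, 290.5 and 313 CPM in SW-138 replicates 1, 2 and 3. The groups did not overlap, and the lowest SW-113 library was above the highest SW-138 library by more than the spread within either group (388 ± 8.43 and 304 ± 11.9 CPM, SD, n = 3). EEF1B2 fell by 0.35 ± 0.05 on the log2 scale (SE), or 1.28-fold (95% interval -0.46 to -0.25), and its adjusted p was 0.00485 (edgeR). It passed under each of the 20 alternative settings, 6 of which leave out 1 library. NDUFS1 lies on the opposite strand and overlaps EEF1B2, at 155 and 160 CPM, and reads of such pairs are separated only if strand was used, which is not given in the sources used here. NDUFS1 itself had a log2 fold change of 0.05 (adjusted p = 0.612, edgeR).

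EEF1G (ENSG00000254772, chr11:62559601-62574086) encodes the structural subunit that anchors the exchange complex. Its libraries read 1912, 2135 and 1965 CPM with SW-113 and 1658, 1717 and 1773 CPM with SW-138. Every SW-138 library was lower than every SW-113 library. EEF1G fell by 0.22 ± 0.05 on the log2 scale, 1.17-fold, with an adjusted p of 0.0491 (edgeR). The call did not survive the loss of any of the 6 libraries, where the adjusted p lay between 0.0662 and 0.153 (edgeR) and the log2 fold change between -0.26 and -0.18.

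EEF1A1 (ENSG00000156508, chr6:73515750-73523797) delivers charged tRNA to the ribosome and was the most abundant member in every library. Its level was 16178, 17749 and 16105 CPM with SW-113 and 14305, 14897 and 14214 CPM with SW-138. The lowest SW-113 library exceeded the highest SW-138 library. The log2 fold change was -0.20 ± 0.05 (interval -0.32 to -0.09; adjusted p = 0.0672, edgeR), and it passed in 6 of the 20 alternatives. EEF1A1 took 38.1% to 40.9% of the members' summed CPM in a library. Its 39 pseudogene rows took 0.00210% ± 0.000133 of the counts with SW-113 and 0.00185% ± 0.000230 with SW-138, and adding them left the log2 fold change at -0.20 (adjusted p = 0.0654, edgeR).

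EEF2 (ENSG00000167658, chr19:3976056-3985469), the translocase, gave 4384, 4812 and 4526 CPM with SW-113 and 3766, 4034 and 4168 CPM with SW-138. These groups did not overlap either. The log2 fold change was -0.20 ± 0.05 with an adjusted p of 0.0826 (edgeR), and it passed in 5 of the 20 alternatives. EEF1A2, the paralog of EEF1A1 known from neurons and muscle, had overlapping libraries (143.6 ± 9.58 and 138.6 ± 5.76 CPM, SD, n = 3) and a log2 fold change of -0.05 (adjusted p = 0.656, edgeR). That value changed sign when only total counts were used for scaling and when trends with length and GC content were removed. EIF5A, whose hypusine residue helps the ribosome past proline-rich stretches, had -0.13 ± 0.05 (adjusted p = 0.228, edgeR) with SW-113 at 500.3, 475.3 and 525.2 CPM and SW-138 at 439.9, 458.3 and 477.7 CPM. EIF5A2, its paralog, had 0.02 ± 0.06 (adjusted p = 0.887, edgeR), and that sign turned without SW-113 replicate 1 or SW-138 replicate 2. The EIF5A copy EIF5AL1 stood at 0.34 to 0.83 CPM with -0.59 ± 0.33. EEF1E1, an accessory protein of the multi-synthetase complex, had 0.03 ± 0.07 (adjusted p = 0.825, edgeR), with a sign that turned without SW-113 replicate 1 or SW-138 replicate 3.

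**Figure D2:**
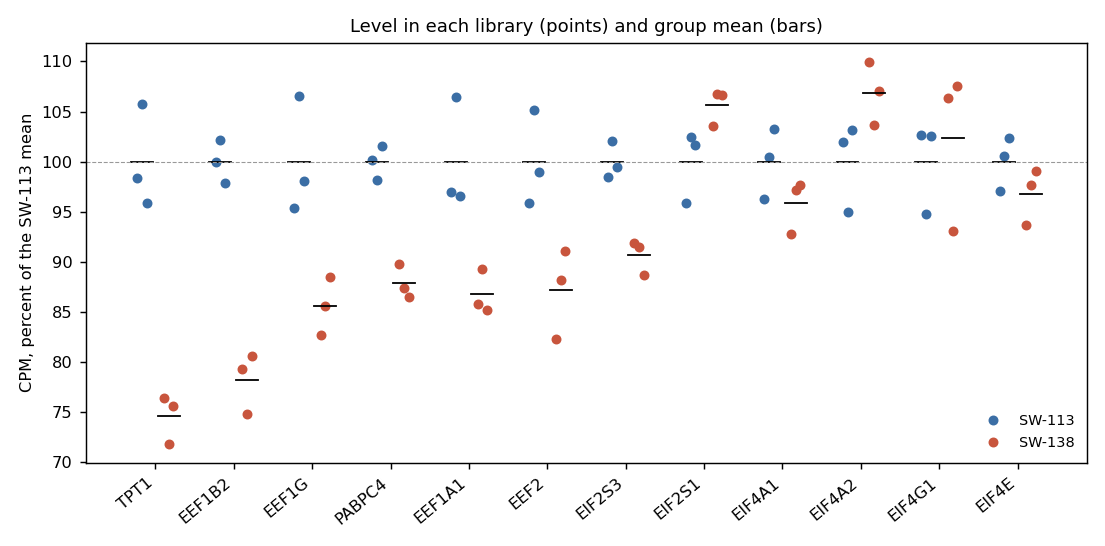
Level of 12 members in each library, as CPM in percent of the SW-113 mean of that gene, with a point per library (blue SW-113, red SW-138) and a bar for the mean of 3. The axis does not start at 0. The TPT1 and EEF1B2 points of the compounds lie farthest apart, while EIF2S1 and EIF4A2 lie above the SW-113 points.

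TPT1 (ENSG00000133112, chr13:45333471-45341370), also known as TCTP, is an abundant TOP mRNA whose protein binds eEF1A and eEF1B. It had the lowest p of all members. The 3 SW-113 libraries read 1817, 1955 and 1772 CPM and the 3 SW-138 libraries 1412, 1328 and 1397 CPM. The gap between the groups was larger than the spread within either (1848 ± 95.5 and 1379 ± 44.5 CPM, SD, n = 3). TPT1 fell by 0.42 ± 0.05 on the log2 scale, or 1.34-fold (95% interval -0.53 to -0.31), and its adjusted p was 0.00358 (edgeR). It passed in each of the 20 alternatives, and with any 1 library left out the log2 fold change lay between -0.45 and -0.38. TPT1-AS1 overlaps it on the opposite strand at 5.64 and 4.93 CPM, 0.328% of TPT1's level.

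The cytoplasmic poly(A)-binding proteins coat the mRNA tail and contact eIF4G. PABPC4 (ENSG00000090621, chr1:39560816-39576790) gave 269.7, 264.5 and 273.6 CPM with SW-113 and 241.9, 235.3 and 233.0 CPM with SW-138, with no overlap. It fell by 0.19 ± 0.04 on the log2 scale, 1.14-fold, with an adjusted p of 0.0432 (edgeR). That call was lost without any of the 6 libraries, with adjusted p from 0.0624 to 0.164 (edgeR), and held in 12 of the 20 alternatives. PABPC1, the main family member, read 1971, 1989 and 2037 CPM with SW-113 and 1950, 1733 and 1676 CPM with SW-138. SW-138 replicate 1 lay close to the SW-113 libraries, and the log2 fold change of -0.16 ± 0.06 did not pass (adjusted p = 0.164, edgeR).

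None of the 14 eIF3 subunits passed the test. This large complex holds the small ribosomal subunit and recruits the mRNA. By edgeR 5 of the 14 had an unadjusted p under 0.05, all on the lower side, and limma-voom, edgeR with robust estimation and DESeq2 called 0. The class median was -0.10, or -0.08 over the 13 without EIF3CL, and in 6 of these the groups did not overlap, with SW-138 the lower, beside 15.4% of all tested genes and 21.9% of those at a mean of at least 100 CPM. EIF3G and EIF3K, small peripheral subunits, had log2 fold changes of -0.19 ± 0.06 and -0.20 ± 0.06 (adjusted p = 0.0951 and 0.0950, edgeR). EIF3K stood at 157.5, 169.5 and 156.5 CPM with SW-113 and 130.2, 151.1 and 140.8 CPM with SW-138. EIF3K was called when SW-138 replicate 2 was left out (adjusted p = 0.0223, edgeR), at -0.25, and stood at -0.09 with length and GC trends removed. EIF3H and EIF3L, further subunits, had -0.16 ± 0.05 and -0.15 ± 0.04 (adjusted p = 0.0997 and 0.106, edgeR).

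The core scaffold subunit EIF3A stayed near 0. It read 481.1, 474.4 and 492.5 CPM with SW-113 and 496.7, 483.5 and 481.6 CPM with SW-138, and the libraries overlapped. Its log2 fold change was 0.01 ± 0.04 with a 95% interval of -0.08 to 0.11, and it became -0.04 with length and GC trends removed. EIF3CL, a near-identical copy of EIF3C, varied most between libraries, at 26.8, 37.2 and 20.8 CPM and at 18.9, 25.7 and 6.79 CPM, with a log2 fold change of -0.73 ± 0.37 (adjusted p = 0.262, edgeR). The counting program divides shared reads between such copies by estimate. Summed, EIF3C and EIF3CL stood at 1099, 1175 and 1152 CPM with SW-113 and 1130, 1139 and 1158 CPM with SW-138, with a log2 fold change of 0.00 (adjusted p = 0.998, edgeR).

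For eIF2, which carries the initiator tRNA, 0 of 6 members passed, 1 had an unadjusted p under 0.05 by edgeR, and the other 3 tools called 0. The median was -0.07. EIF2S3, the GTP-binding gamma subunit, read 441.7, 457.9 and 446.0 CPM with SW-113 and 412.1, 410.5 and 397.7 CPM with SW-138, with a log2 fold change of -0.14 ± 0.04 (adjusted p = 0.111, edgeR). EIF2S1, the alpha subunit that stress kinases phosphorylate, read 159.7, 170.6 and 169.3 CPM with SW-113 and 172.5, 177.8 and 177.5 CPM with SW-138, with 0.08 ± 0.05 (adjusted p = 0.382, edgeR). The subunits of this trimer thus lay on opposite sides of 0, each without overlap between groups, and neither passed. EIF2S2, the beta subunit, had -0.07 ± 0.05 (adjusted p = 0.472, edgeR) and EIF2A, an alternative initiator tRNA carrier, -0.11 ± 0.05 (adjusted p = 0.232, edgeR). EIF2S3L (current symbol EIF2S3B), a copy of EIF2S3, was near the detection limit at 0.16 to 0.49 CPM and had 0.57 ± 0.47.

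The 5 subunits of eIF2B, the exchange factor that recharges eIF2 and is the target of its phosphorylated form, gave 0 calls by each of the 4 tools and 0 unadjusted p under 0.05 by edgeR. Their median was -0.10. EIF2B1 had -0.11 ± 0.05, EIF2B3 -0.13 ± 0.09, EIF2B4 -0.10 ± 0.07 and EIF2B2 0.07 ± 0.07. Among the 8 genes for start codon choice and subunit joining, 0 were called by each tool and 2 had an unadjusted p under 0.05 by edgeR, with a median of -0.04. These 2 were EIF1B, a close paralog of the start-codon selector EIF1, at -0.16 ± 0.06 (adjusted p = 0.180, edgeR), and EIF6, which keeps the large subunit from joining too early, at -0.14 ± 0.06 (adjusted p = 0.205, edgeR). EIF1AX and EIF1AY, the X and Y copies of eIF1A, had -0.03 ± 0.05 and -0.06 ± 0.08, and both signs turned when total counts alone set the scale.

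The 12 genes of the cap-binding group had 0 calls by each of the 4 tools, 1 unadjusted p under 0.05 by edgeR and a median of -0.05. The helicase paralogs EIF4A1 and EIF4A2, which unwind mRNA leaders, lay on opposite sides of 0. EIF4A2 read 541.9, 504.9 and 548.4 CPM with SW-113 and 584.7, 551.1 and 569.2 CPM with SW-138, a log2 fold change of 0.10 ± 0.05 (adjusted p = 0.332, edgeR). EIF4A1 read 992.6, 1036 and 1064 CPM with SW-113 and 956.9, 1002 and 1007 CPM with SW-138, -0.06 ± 0.05 (adjusted p = 0.542, edgeR), a sign that turned with total counts alone. RFC4 and the unnamed gene RP11-573D15.9 overlap EIF4A2 on the opposite strand, at 37.1 and 5.10 CPM with SW-113. RFC4 had a log2 fold change of 0.11 (adjusted p = 0.268, edgeR) and RP11-573D15.9 rose by 0.53 (adjusted p = 0.011, edgeR).

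The helicase cofactor EIF4B, a TOP mRNA, read 1042, 1060 and 1080 CPM with SW-113 and 1010, 959.8 and 985.4 CPM with SW-138, with no overlap and a log2 fold change of -0.11 ± 0.04 (adjusted p = 0.239, edgeR). EIF4E, the cap-binding protein, had -0.05 ± 0.05 with an interval of -0.15 to 0.06, and EIF4G1, the scaffold that joins cap, helicase and tail, 0.03 ± 0.06 with an interval of -0.10 to 0.17. EIF4E turned positive with total counts alone and with trends removed, and EIF4G1 turned negative with trends removed and without SW-113 replicate 2. EIF4G2, a scaffold that lacks the cap-binding contact, had -0.05 ± 0.04, which total counts alone turned. EIF4A3, the exon junction helicase, had -0.08 ± 0.06 (adjusted p = 0.437, edgeR). EIF4E2 and EIF4E3, cap-binding relatives, had -0.12 ± 0.05 and -0.19 ± 0.11 (adjusted p = 0.199 and 0.346, edgeR), and EIF4ENIF1, which carries eIF4E into the nucleus, 0.09 ± 0.06 (adjusted p = 0.410, edgeR). Over all classes, the 17 members without a value of their own above had log2 fold changes from -0.15 (EEF1D) to 0.02 (EIF2B5), with none past the threshold.

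Ratios of partners within a library do not depend on how libraries were scaled. Of 12 ratios compared, 6 did not overlap between compounds, where 34.7% of all pairs of 54 members did not. These 54 are the members without EIF3CL, EIF5AL1, EIF2S3L and EIF1AY. An exact two-sided permutation test of 3 against 3 cannot go below p = 0.1, and after adjustment over the 12 ratios these 6 stood at 0.2. The log2 ratio of EIF2S1 to EIF2S3 was -1.47, -1.42 and -1.40 in the SW-113 libraries and -1.26, -1.21 and -1.16 in the SW-138 libraries, a difference of 0.22. That of EIF4A2 to EIF4A1 was -0.87, -1.04 and -0.96 with SW-113 and -0.71, -0.86 and -0.82 with SW-138, a difference of 0.16. EEF1A2 to EEF1A1 was higher by 0.15 with SW-138. EEF1B2 was lower relative to EEF1A1 and to EEF1G, with differences of -0.15 and -0.13. The ratio of PABPC4 to PABPC1 overlapped (difference -0.02, exact permutation p = 0.9).

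**Figure D3:**
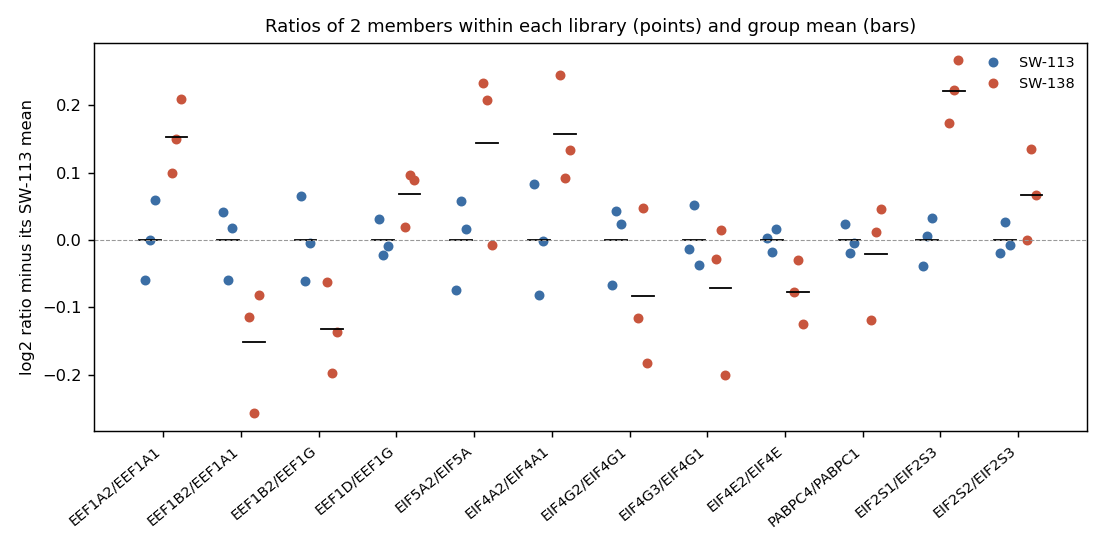
Log2 ratio of 12 pairs of members within each library, less the SW-113 mean of that ratio, with a point per library (blue SW-113, red SW-138) and a bar for the mean of 3. The ratios of EIF2S1 to EIF2S3 and of EIF4A2 to EIF4A1 lie higher in each SW-138 library than in any SW-113 library.

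Levels of different genes were compared per length, as CPM per kb of the gene's median coding transcript in the SW-113 libraries. EEF1A1 came first at 4838, followed by TPT1 at 1752, EEF2 at 1446, EEF1G at 1316 and PABPC1 at 845. EEF1B2 stood at 441, and EIF5A at 384. EIF4A1 reached 627 where EIF4E, the cap-binding protein it works with, was at 84.5 and the scaffold EIF4G1 at 147. EEF1A2 reached 71.3. The 58 members together took 4.08% ± 0.137 of all counts in SW-113 libraries and 3.81% ± 0.0705 in SW-138 libraries (SD, n = 3), with every SW-113 library above every SW-138 library. Without EEF1A1 the shares were 2.45% ± 0.0577 and 2.33% ± 0.0160, again with no overlap.

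The 11 classical TOP members were EEF1A1, EEF1B2, EEF1D, EEF1G, EEF2, EIF3E, EIF3F, EIF3H, EIF4B, PABPC1 and TPT1. Of these 3 fell and 8 did not pass, all 11 had values below 0, and in 10 every SW-138 library was below every SW-113 library. Of the other 47 members 1 fell, 34 had values below 0 and 12 did not overlap in that direction. The median log2 fold changes were -0.16 and -0.05. Over all tested genes 4.06% were lower and 15.4% did not overlap in that direction, and at a mean of at least 100 CPM 8.46% and 21.9%. Splitting by RefSeq start is not a like-for-like check, since it used only the members with a start read. PABPC4, which was lower, was missing, as were the classical TOP members EEF1D, EIF3E, EIF3H and PABPC1. EEF1G, a classical TOP member, counted among those without a run. The medians were -0.11 over the 14 members with a pyrimidine run (2 lower) and -0.05 over the 33 without (1 lower). Among all 794 tested protein-coding genes with such a start 103 were lower and 23 higher, with a median of -0.04. Among the 9937 without it 447 were lower and 306 higher, with a median of 0.00.

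Short transcripts as a whole also lay lower, and 10 of the members fall in the shortest band. Protein-coding genes with transcripts under 1200 bases had a median log2 fold change of -0.13, with 295 of 1669 lower, and those of 3500 bases or more 0.04, with 69 of 4275 lower. The 10 members under 1200 bases had a median of -0.11 and 2 calls, beside -0.13 over all such genes. From 1200 to 2000 bases the 20 members had -0.11 where all such genes had -0.05, and from 2000 to 3500 bases the 19 members had -0.07 where all such genes had 0.01. The 9 longest had -0.01. With trends of length and GC content removed in each library, TPT1, EEF1B2 and PABPC4 kept an adjusted p under 0.05 (edgeR) and EEF1G did not (adjusted p = 0.112, edgeR). Over the 20 alternatives, trend removal among them, the log2 fold change ran from -0.45 to -0.35 for TPT1 and from -0.37 to -0.26 for EEF1B2. The part of transcript length in these values was not tested further.

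**Figure D4:**
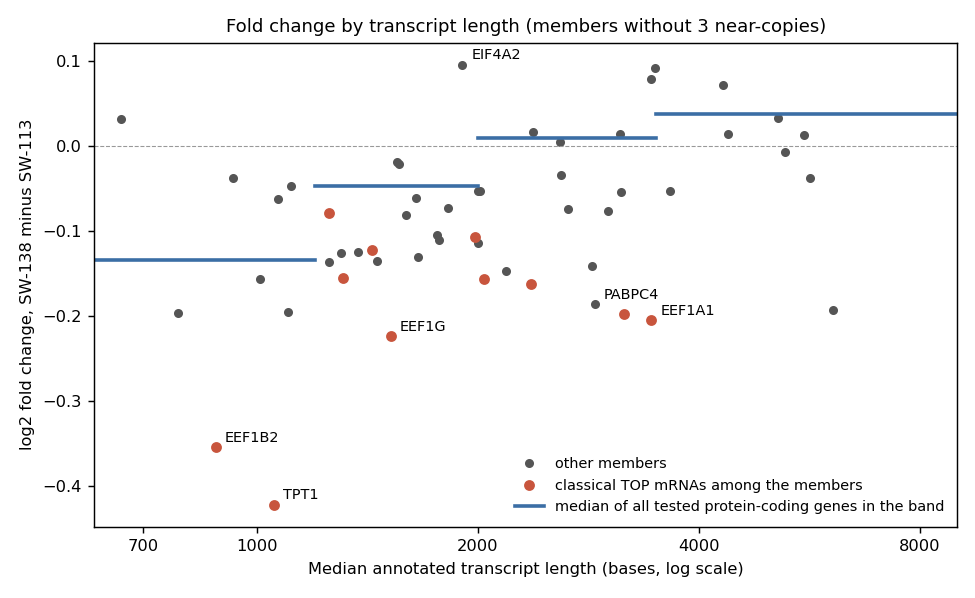
Log2 fold change (SW-138 minus SW-113) of the members other than the 3 near-copies against the median length of their coding transcripts in bases, on a log axis, with classical TOP members in red and a blue line for the median of all tested protein-coding genes in each length band. Members under 1200 bases have a median of -0.11 where all such genes have -0.13.

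Genes that act on these factors were read from the same fit, in which 4.06% of all tested genes were lower and 2.76% higher. Among 20 kinases and binding proteins 1 rose and 1 fell (median 0.02), near those shares. PPP1R15A, which directs the phosphatase that removes phosphate from eIF2 alpha, stood at 73.7, 78.5 and 69.6 CPM with SW-113 and 97.7, 99.8 and 123 CPM with SW-138. It rose by 0.53 ± 0.09 (adjusted p = 0.00744, edgeR), and without SW-113 replicate 3 the adjusted p was 0.0559 (edgeR). PAIP1, a partner of PABPC1, fell by 0.21 ± 0.05 (adjusted p = 0.0222, edgeR) and passed in 1 of the 6 sets that left out a library. Of 17 genes of mTOR complex 1 and its S6 kinases 2 fell and 0 rose, with a median of -0.09. These were MLST8, a core subunit, and RRAGA, a Rag GTPase that reports amino acids, at -0.21 ± 0.05 and -0.19 ± 0.05 (adjusted p = 0.0370 and 0.0387, edgeR). With 1 library left out MLST8 passed in 0 of 6 sets and RRAGA in 1.

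Of 11 tested genes for other tail and cap binding proteins 2 fell, with a median of -0.02. Over all tested genes 4.06% were lower, and 8.46% at a mean of at least 100 CPM. YBX1, a cold-shock protein that packages mRNA, went from 615 ± 25.9 to 480 ± 18.0 CPM (SD, n = 3), -0.36 ± 0.05 with an adjusted p of 0.00568 (edgeR), and passed in each of the 20 alternatives. Its relative YBX3 fell by 0.21 ± 0.05 (adjusted p = 0.0482, edgeR), a call kept in 1 of the 6 sets with a library left out. Among 10 TOP RNAs from outside the set, not all of them coding, 3 fell and 1, the noncoding SNHG1, rose. Their median was -0.14. At a mean of at least 100 CPM 8.46% of tested genes were lower and 5.72% higher. NACA and BTF3, partners in the nascent polypeptide complex, fell by 0.25 ± 0.04 and 0.20 ± 0.04 (adjusted p = 0.0157 and 0.0379, edgeR), and GNB2L1 (RACK1), a protein of the small subunit, by 0.23 ± 0.05 (adjusted p = 0.0359, edgeR). These 3 passed in 2, 1 and 2 of the 6 sets that left out a library. SNHG1, a noncoding host of small nucleolar RNAs, rose by 0.38 ± 0.06 (adjusted p = 0.00861, edgeR), and without SW-113 replicate 3 the adjusted p was 0.0559 (edgeR).

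The remaining lists had 0 calls by edgeR. The 10 enzymes that modify eIF5A and eEF2 had a median of -0.08, 1 unadjusted p under 0.05, and 0 calls by the other 3 tools. DPH3 and DPH5, which build the diphthamide of eEF2, had -0.18 ± 0.07 and -0.12 ± 0.06. For the 12 genes of termination and recycling the median was -0.02, with 2 unadjusted p under 0.05 and 1 call, LTN1, by DESeq2 alone. LTN1, a ligase for stalled chains, had 0.22 ± 0.07 (adjusted p = 0.0940, edgeR) and DENR, a reinitiation factor, -0.16 ± 0.05. The 6 other helicases and scanning factors had a median of 0.03 and 1 unadjusted p under 0.05, that of BZW1, a mimic of eIF5, at 0.20 ± 0.05 (adjusted p = 0.0649, edgeR). BZW1 was called higher by each of the other 3 tools. DHX9, an RNA helicase, had -0.06 ± 0.05 (adjusted p = 0.547, edgeR), a sign that turned with total counts alone. The 11 mitochondrial translation factors had a median of -0.05, 2 unadjusted p under 0.05 and 0 calls by the other 3 tools. MTIF3 and MTRF1L, for mitochondrial initiation and release, had -0.26 ± 0.07 and -0.17 ± 0.06 (adjusted p = 0.0526 and 0.0997, edgeR).

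**Figure D5:**
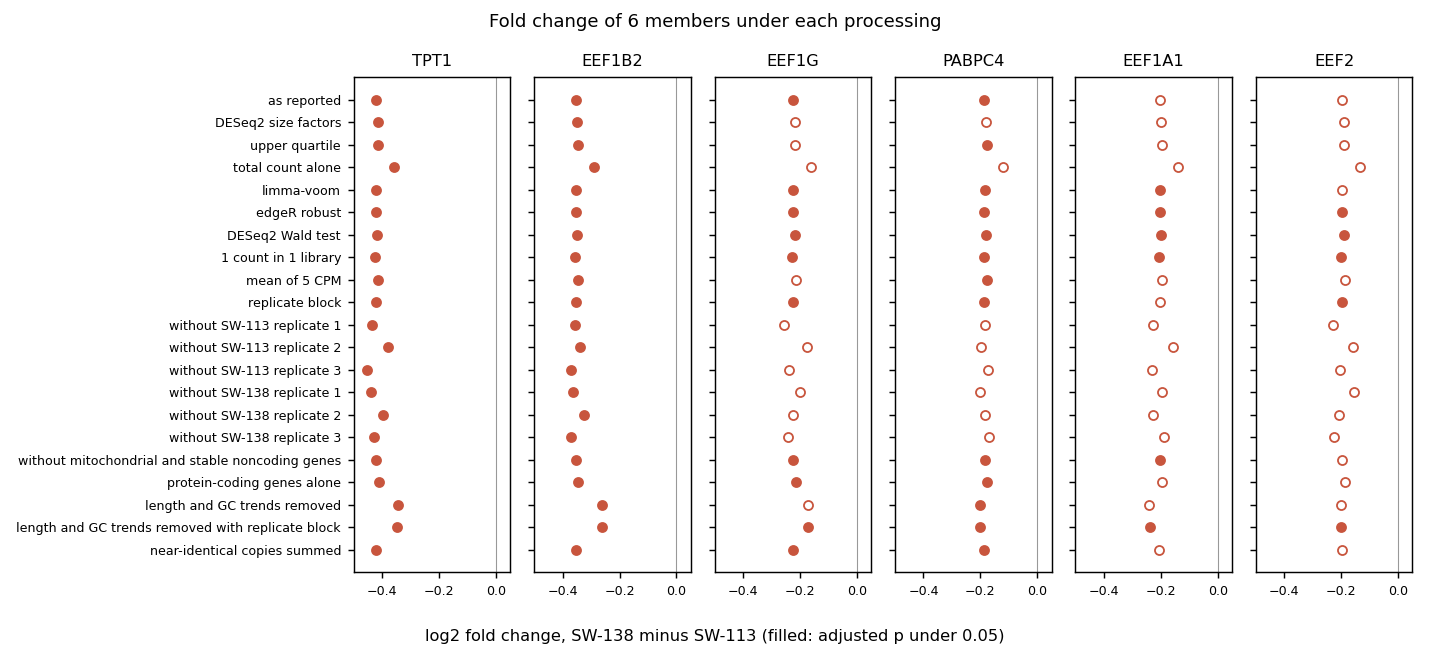
Log2 fold change (SW-138 minus SW-113) of 6 members as reported and under each alternative setting, with filled points where the adjusted p is under 0.05. TPT1 and EEF1B2 pass in each of the 20 alternatives, EEF1G in 9 and PABPC4 in 12.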

How the data were processed

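RNA was measured in 6 libraries of HT1080 cells, 3 per compound, grouped by the labels. The authors deposited 1 table of expected counts, estimates that need not be whole (10.56% to 11.56% of values in a library were not), with 0 other sample columns. The submitters' processing notes list, without role or order, DESeq2 1.42.0, RSEM 1.3.3, Bowtie2 2.5.4 and Trimmomatic 0.39, on build GRCh38. Which annotation, filters and strand option the authors used is not given in the sources used here.

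Expected counts were rounded, filtered with filterByExpr (16905 genes left) and scaled by TMM. SW-138 was compared with SW-113 by edgeR 4.0.16 (quasi-likelihood, R 4.3.3), adjusted by Benjamini-Hochberg across all genes tested, at 0.05. The biological coefficient of variation was 7.56%. Standard errors came from limma-voom (limma 3.58.1), and the 95% intervals combine them with the edgeR estimate. Intervals and tests cover these libraries only. GENCODE release 29 gave GRCh38 coordinates and, as the median over basic coding transcripts, lengths for 16784 genes (99.3%). The procedure was tested on simulated data.

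The members and lists were chosen with earlier results of these data known, and no list was tested as a set. In addition to entries with too few counts to test, 1 list entry is not reported here. Named were members past the threshold, the 3 largest log2 fold changes in each direction, the 4 smallest p per role, 18 fixed genes and, per pathway list, the called genes or the 2 smallest p. Alternatives were other scalings, filters and tools (DESeq2, limma-voom, robust edgeR), a replicate block, each library left out, gene classes left out, length and GC trends removed and, chosen after seeing the data, near-identical copies summed.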

Additional observations from a re-analysis of the deposited data

How the results depend on the processing

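With 1 library left out, members called lower numbered 2 to 4, all genes called 303 to 1616, and the members' median log2 fold change ran from -0.11 to -0.05. Over all tested genes 0.886% to 4.72% were lower in these sets. The 4 members were reached without SW-138 replicate 2 (TPT1, EEF1B2, EIF3K and EIF3CL), the set with 4.72%. Members called lower numbered 2 with DESeq2 size factors and 2 with total count alone (members' median -0.0133), beside 3.76% and 2.23% of all genes. With the filter of 1 count in 1 library 9 were lower, beside 3.39% of genes (2060 genes called in all). The 9 include EIF3CL, though EIF3C and EIF3CL summed had a log2 fold change of 0.00. With the replicate block 10 members and 2363 genes were called, and 7.51% of genes were lower. With length and GC trends removed beside the block 11 members and 2338 genes were called, and 7.05% of genes were lower. The labels do not say whether shared numbers pair the samples. Same-numbered samples correlated at 0.049, 0.206 and 0.051 after group means were removed, and differently numbered ones at -0.142 to 0.09. Not every sample correlated best with its own number, and with 3 libraries per compound these values cannot settle whether samples were paired. No alternative called a member higher. Signs turned with total count alone for EEF1A2 (0.0116), EIF4G2 (0.0113), EIF4E (0.0169), EIF4A1 (0.0034), EIF1AX (0.0301), EIF1AY (0.0027) and DHX9 (0.0073). With trends removed they turned for EEF1A2 (0.0068), EIF3A (-0.0373), EIF4G1 (-0.0018) and EIF4E (0.0248), and with the block as well at 0.0088, -0.0373, -0.0024 and 0.0244. Leaving out a library gave both signs for EEF1E1 (-0.0277 to 0.0755), EIF5A2 (-0.0174 to 0.0684), EIF4G1 (-0.0047 to 0.0954) and EIF1AX (-0.0699 to 0.0042). The cause of these shifts was not tested. Of 1173 values of named genes under the 20 alternatives 1029 kept direction and side of the threshold, 74 lost the threshold, 49 gained it and 21 turned.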
